A study of Mus musculus with 6 samples.

Results

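The 9 genes described here encode the type I interferon receptor, the kinases and STAT factors that act below it, and inhibitors of the same pathway. They are *Ifnar1*, *Ifnar2*, *Jak1*, *Tyk2*, *Stat2*, *Stat3*, *Socs1*, *Socs3* and *Usp18*. They were chosen by name among the 57180 genes of the deposited count table, with earlier results of these data known. RNA was sequenced from osteoclast precursors (OCPs), macrophages from mouse bone marrow that have begun to differentiate towards osteoclasts, and which the labels call bone marrow-derived macrophages. The wild-type (WT) group came from C57BL/6 mice and the knockout (KO) group from mice without the long non-coding RNA lincRNA-EPS, with 3 biologically independent replicates each. All 6 cultures received 40 ng/ml M-CSF alone for 24 h. RANKL, the cytokine that starts osteoclast differentiation, was then added at 40 ng/ml for 48 h. No interferon or other stimulus is given for these cultures in the labels.

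Type I interferons bind a receptor made of the chains IFNAR1 and IFNAR2. TYK2 and JAK1 are the kinases bound to these chains, and they phosphorylate STAT proteins, of which STAT2 joins IRF9 in the complex that switches on interferon-stimulated genes, while STAT3 also serves interleukins of the IL-6 and IL-10 families. SOCS1, SOCS3 and USP18 are feedback inhibitors, and in the osteoclast lineage interferon β is known to restrain RANKL-driven differentiation.

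As a check of the labels, the targeted transcript, listed as *Ttc39aos1*, was read at 20, 37 and 41 counts in the WT libraries and at 0 in all 3 KO libraries. Library totals were between 17757351 and 19998611 estimated counts, so that 3 counts, taken as the smallest measured level, equal 0.150 to 0.173 CPM, the count scaled by library size. Levels below are CPM after edgeR's TMM normalization, and changes are log2 fold changes of KO relative to WT from edgeR's quasi-likelihood test, adjusted by the Benjamini-Hochberg method over 13428 tested genes. The change of a gene went with the GC content of its transcript (Pearson r = -0.51 across 13176 genes, which are not independent replicates). KO replicate 3 and WT replicate 2 stood furthest apart in this respect, with r = -0.606 and 0.563 between GC content and the deviation of the library from the mean. Values after a GC correction, which removes this trend from each library, are given beside the uncorrected ones for each gene whose change is reported. The correction takes no account of genotype, so any genotype difference that goes with GC content is removed with the trend.

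All 9 genes were detected in every library and passed the filter on low counts. On a TPM-like scale, which divides counts by the length of the longest transcript, *Ifnar1* had the highest WT level at 130 ± 9.67 (SD, n = 3), followed by *Jak1* at 112 ± 4.37 and *Ifnar2* at 62.4 ± 0.998. The range of *Ifnar1* over all libraries, 90.1 to 141, overlapped that of *Jak1*, 90.0 to 117. *Tyk2* (44.6 ± 8.08) and *Stat3* (39.6 ± 3.96) did not differ beyond their spread in WT, and their means stood in the opposite order in KO, at 29.1 ± 6.61 and 31.1 ± 3.65. *Stat2* followed at 19.4 ± 1.46, and the inhibitors had the lowest levels of the 9, with *Socs3* at 10.3 ± 1.49, *Usp18* at 6.63 ± 0.777 and *Socs1* at 3.82 ± 0.862. The receptor chains and JAK1 were thus represented by more transcripts per length than the STAT genes and the inhibitors in both genotypes.

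**Figure D1:**
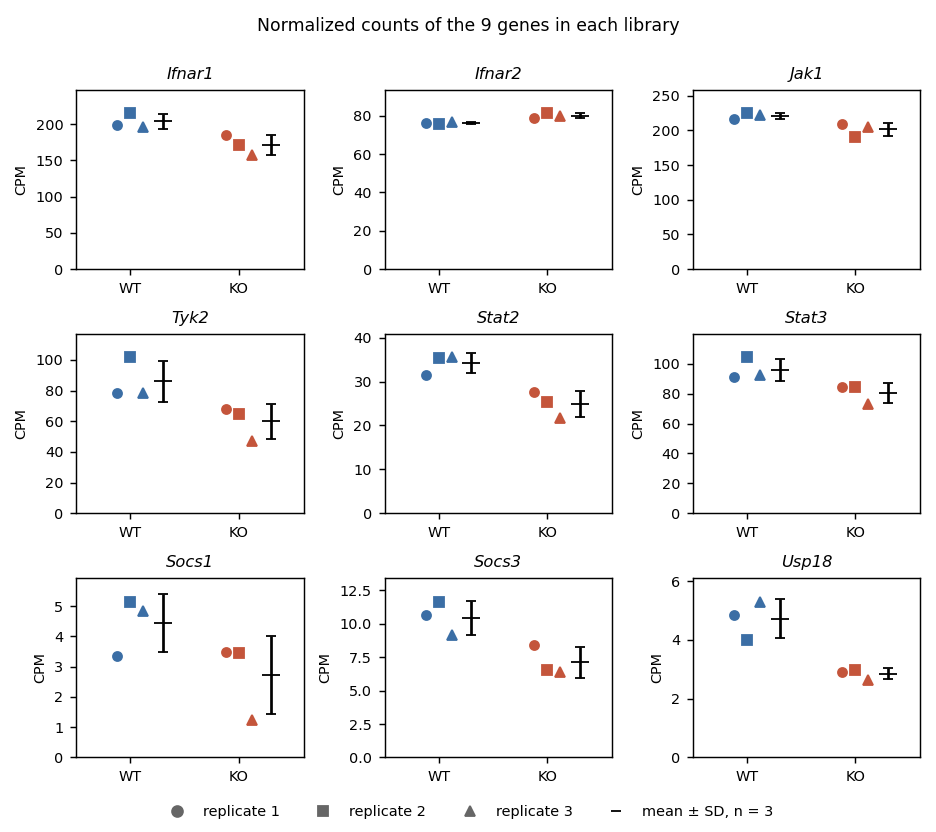
Normalized counts (CPM, vertical axis from 0 in each panel) of the 9 genes in 3 WT (blue) and 3 KO (red) libraries, with the symbol giving the replicate number and the bars the mean ± SD. The KO values lie below all WT values in 7 panels, above them for *Ifnar2*, and overlap them for *Socs1*.

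In KO, 8 of the 9 genes had a lower estimate than in WT and 1, *Ifnar2*, a higher one, but none met the limits for a call, an adjusted p under 0.01 with a fold change above 1.3 in edgeR. Over all tested genes 1 was called, 0.00745%. The targeted transcript *Ttc39aos1*, with 0 counts in every KO library, was not called either (edgeR adjusted p = 0.12). At an unadjusted edgeR p under 0.05, 6 members were lower and 0 higher, where 13.2% of all tested genes were lower and 13% higher. The 3 KO values lay below the 3 WT values for 7 members, against 18.8% of all tested genes, and above them for 1, against 16.9%. The median log2 fold change of the 9 was -0.46, and that of all tested genes 0.0091. The summed level of the 9 was between 713 and 777 CPM in WT and between 594 and 668 CPM in KO. In RNA from whole cultures, fewer cells of a type and less RNA per cell cannot be told apart.

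*Ifnar1* (chromosome 16, 91485238 to 91507441, plus strand, GRCm38) encodes the receptor chain that binds TYK2. Its level was 199, 215 and 197 CPM in the WT and 185, 171 and 157 CPM in the KO replicates. All KO values were below all WT values, and the fitted KO level was 0.840 times that of WT. The log2 fold change was -0.25 (95% interval -0.47 to -0.034, edgeR adjusted p = 0.161) and -0.23 after GC correction (edgeR adjusted p = 0.10).

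*Ifnar2* encodes the chain that binds JAK1 and lies 79648 bases upstream of *Ifnar1* on the same strand (91372783 to 91405589). Its level was 76.4, 75.5 and 76.9 CPM in WT and 78.6, 81.4 and 80.1 CPM in KO. These groups did not overlap either, but in the other direction from *Ifnar1*, and the means were only 76.3 ± 0.688 and 80.1 ± 1.37 CPM (SD, n = 3). The log2 fold change was 0.07 (95% interval -0.12 to 0.26, edgeR adjusted p = 0.603) and 0.11 after GC correction (edgeR adjusted p = 0.314). The sign depended on the scale, since the per-length levels, which are scaled to the sum of per-length values over all genes, had means of 62.4 in WT and 61.3 in KO. The annotation gives *Ifnar2* 315 exonic bases in common with *Gm21970* on the same strand, a gene with 0 to 4 counts per library.

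*Jak1* (chromosome 4, 101152367 to 101265282, minus strand) encodes the kinase on IFNAR2 that many other cytokine receptors share. It lies 8138511 bases from the lincRNA-EPS gene. Its level was 216, 225 and 222 CPM in WT and 209, 191 and 205 CPM in KO. The groups did not overlap, but the log2 fold change was small, at -0.13 (95% interval -0.33 to 0.06, edgeR adjusted p = 0.33). *Jak1* had the lowest GC content of the 9 genes, 47.6%, and was the only one of the 8 lower genes whose estimate moved away from 0 with GC correction, to -0.19 (edgeR adjusted p = 0.119).

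*Tyk2* (chromosome 9, 21104068 to 21131243, minus strand) encodes the kinase on IFNAR1. Its level was 78.6, 102 and 78.2 CPM in WT and 68.2, 64.9 and 46.8 CPM in KO. WT replicate 2 was high and KO replicate 3 low, which are the libraries that stood furthest apart in their GC trend, and the groups did not overlap. The log2 fold change was -0.52 (SE 0.16, 95% interval -0.89 to -0.15, edgeR adjusted p = 0.147). With a transcript of 57.0% GC, the estimate went to -0.28 after GC correction (95% interval -0.46 to -0.11, edgeR adjusted p = 0.0876), and the levels were then 75.7, 85.4 and 74.6 in WT and 67.1, 66.1 and 60.5 CPM in KO. *Tyk2* shares 554 exonic bases with the antisense gene *1700084C06Rik*, which had 0 to 2 counts per library.

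*Stat2* (chromosome 10, 128270559 to 128292849, plus strand) encodes the STAT that acts mainly in the interferon pathway. Its level was 31.6, 35.4 and 35.5 CPM in WT and 27.7, 25.4 and 21.7 CPM in KO. The KO values all lay below the WT values, and the fitted KO level was 0.729 times that of WT. The log2 fold change was -0.46 (SE 0.12, 95% interval -0.73 to -0.18, edgeR adjusted p = 0.147). Most of the estimate was kept after GC correction, at -0.38 (95% interval -0.57 to -0.18, edgeR adjusted p = 0.0639). DESeq2 gave adjusted p = 0.0333 for *Stat2* and 0.0449 for *Tyk2*, the members under 0.05 by that tool, where 4.69% of the 10357 genes with an adjusted p were lower at this limit. With the fold limit and an adjusted p under 0.01, DESeq2 called 0 members, *Usp18* and *Socs1* having no adjusted p there, against 0.695% of genes called lower.

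The promoter of *Stat2* is shown because it holds the core of an interferon-stimulated response element (ISRE), the sequence that the STAT2 complex binds. The window runs from 250 bases before to 50 bases after the start site in RefSeq, chr10:128270248-128270547 of GRCm38.p6 on the plus strand, and the capitals mark the match to the core, which is GAAA, any 2 bases and GAAA, read here on the opposite strand.
Stat2: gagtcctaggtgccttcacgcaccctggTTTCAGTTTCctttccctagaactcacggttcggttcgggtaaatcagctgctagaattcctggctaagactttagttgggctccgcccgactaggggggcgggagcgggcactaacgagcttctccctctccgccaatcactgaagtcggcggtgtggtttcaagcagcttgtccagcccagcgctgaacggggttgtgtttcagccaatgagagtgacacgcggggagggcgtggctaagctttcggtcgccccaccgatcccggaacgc
The match lay at positions -222 to -213 from the start site. Of 32817 RefSeq promoter windows of 300 bases, 3.43% held this core on either strand. Entries were found for 8 of the 9 genes, and 2 of the 8, *Stat2* and *Socs1*, held it. A match describes the letters of the window and was not tested as a binding site.

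*Stat3* (chromosome 11, 100885098 to 100939540, minus strand) had 91.3, 104 and 92.2 CPM in WT and 84.2, 84.1 and 72.8 CPM in KO. The groups did not overlap. The log2 fold change was -0.25 (95% interval -0.49 to -0.021, edgeR adjusted p = 0.17) and -0.15 after GC correction (95% interval -0.30 to -0.0087, edgeR adjusted p = 0.172). It shares 72 exonic bases with *Stat5a* on the other strand, and whether reads were counted by strand is not given in the sources used here.

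*Usp18* (chromosome 6, 121245906 to 121270917, plus strand) encodes a protease that removes ISG15 from proteins and also blocks IFNAR2 signalling, and it is itself interferon-stimulated. It had 97, 73 and 101 counts in WT and 56, 52 and 52 counts in KO, or 4.86, 4.0 and 5.30 against 2.92, 2.99 and 2.65 CPM. The groups did not overlap, and the KO mean of 2.85 CPM had an SD of 0.180 (n = 3). Its log2 fold change was -0.73 (SE 0.18, 95% interval -1.13 to -0.32), or 0.603 times the WT level. *Usp18* had the smallest unadjusted edgeR p of the 9, with rank 248 among the tested genes (edgeR adjusted p = 0.147). At 50.9% GC the estimate hardly moved with GC correction, to -0.68 (95% interval -1.05 to -0.30, edgeR adjusted p = 0.0719).

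*Socs3* (chromosome 11, 117966079 to 117970047, minus strand), the inhibitor that acts on receptors of the IL-6 family, had 10.6, 11.7 and 9.13 CPM in WT and 8.44, 6.56 and 6.36 CPM in KO. These groups did not overlap, and the log2 fold change was -0.56 (SE 0.16, 95% interval -0.93 to -0.18, edgeR adjusted p = 0.147). With a transcript of 58.7% GC, *Socs3* was the member that the GC correction moved most, by 0.32 to -0.24 (95% interval -0.54 to 0.068, edgeR adjusted p = 0.294). The corrected levels, 10.1, 9.39 and 8.56 CPM in WT and 8.26, 6.72 and 8.86 CPM in KO, overlapped.

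*Socs1* (chromosome 16, 10782240 to 10785536, minus strand), the inhibitor of JAK kinases at interferon receptors, had the lowest level. It was measured at 3.36, 5.14 and 4.83 CPM in WT and 3.49, 3.45 and 1.22 CPM in KO. The groups overlapped, and KO replicate 3, with 24 counts against 60 and 67 in the other KO replicates, set much of the difference. The log2 fold change was -0.71 with a wide interval (-1.50 to 0.079, edgeR adjusted p = 0.221). Without KO replicate 3 it was -0.35 (edgeR adjusted p = 0.392), and after GC correction with all libraries -0.43 (edgeR adjusted p = 0.318).

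The promoters of *Socs1* and *Socs3* are shown beside that of *Stat2* because they hold different elements. In *Socs1* (chr16:10785487-10785786, minus strand, GRCm38.p6) the capitals mark 2 overlapping ISRE cores, and in *Socs3* (chr11:117969317-117969616, minus strand) they mark the core of a gamma-activated site (GAS), TTC, any 3 bases and GAA, the sequence bound by STAT dimers such as those of STAT3.
Socs1: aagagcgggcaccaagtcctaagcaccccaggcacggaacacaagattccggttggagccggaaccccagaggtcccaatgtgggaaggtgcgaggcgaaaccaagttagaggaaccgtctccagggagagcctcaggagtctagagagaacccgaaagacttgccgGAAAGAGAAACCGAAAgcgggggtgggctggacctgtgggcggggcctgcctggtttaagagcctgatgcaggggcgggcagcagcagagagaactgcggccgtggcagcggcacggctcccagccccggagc
Socs3: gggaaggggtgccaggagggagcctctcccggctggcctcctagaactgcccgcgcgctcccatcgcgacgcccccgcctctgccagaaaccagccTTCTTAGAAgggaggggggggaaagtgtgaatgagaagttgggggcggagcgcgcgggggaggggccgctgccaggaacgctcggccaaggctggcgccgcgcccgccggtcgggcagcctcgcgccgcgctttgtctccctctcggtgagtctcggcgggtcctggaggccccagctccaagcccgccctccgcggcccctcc
The cores of *Socs1* lay at positions -83 to -74 and -77 to -68 and the core of *Socs3* at -154 to -146. The *Socs3* window lies inside the gene bounds given above, because RefSeq places the start site further into the gene. A GAS core was in 8.29% of all windows and in 3 of the 8 with an entry, *Socs3*, *Ifnar1* and *Ifnar2*. The promoter windows of *Jak1*, *Tyk2* and *Stat3* held neither set of letters.

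**Figure D2:**
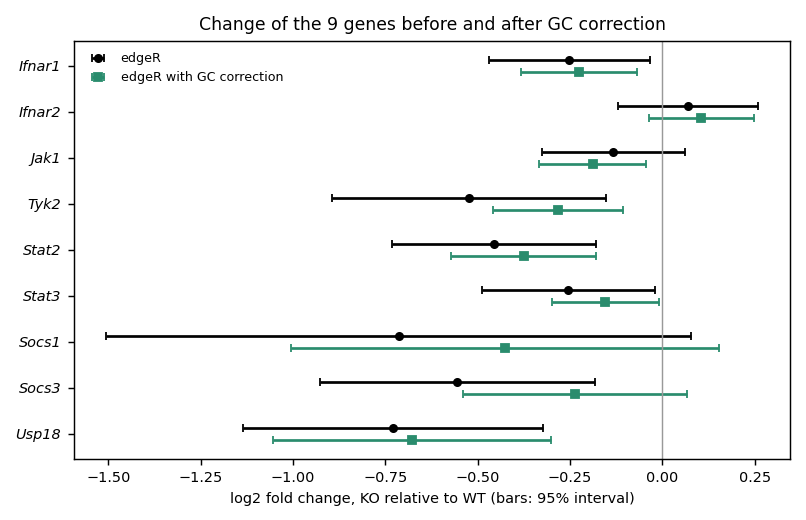
Log2 fold change of KO relative to WT (horizontal axis) for the 9 genes by edgeR without (black circles) and with GC correction (green squares), with 95% intervals from 3 libraries per genotype. *Usp18*, *Stat2* and *Ifnar1* keep most of their estimate, while *Tyk2*, *Socs3* and *Socs1* move towards 0.

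By GC content, the members fell into separate ranges. *Tyk2*, *Socs3* and *Socs1*, at 57.0% to 58.8% GC, moved by 0.24 to 0.32 on the log2 scale with the correction, whereas the other 6, at 47.6% to 52.5%, moved by between -0.056 and 0.10. After GC correction 8 members still had a lower and 1 a higher estimate, with a median of -0.24 against -0.0061 for all tested genes. The groups did not overlap for 6 lower members, against 17.5% of all tested genes, and for 1 higher member, against 14.7%. In this fit 0 members had an edgeR adjusted p under 0.05, where 0.529% of all tested genes were lower at that limit. KO replicate 3 was the lowest of the 6 libraries for 7 members before and 6 members after the correction. The part of GC content in the differences between the genotypes was not tested beyond this correction.

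**Figure D3:**
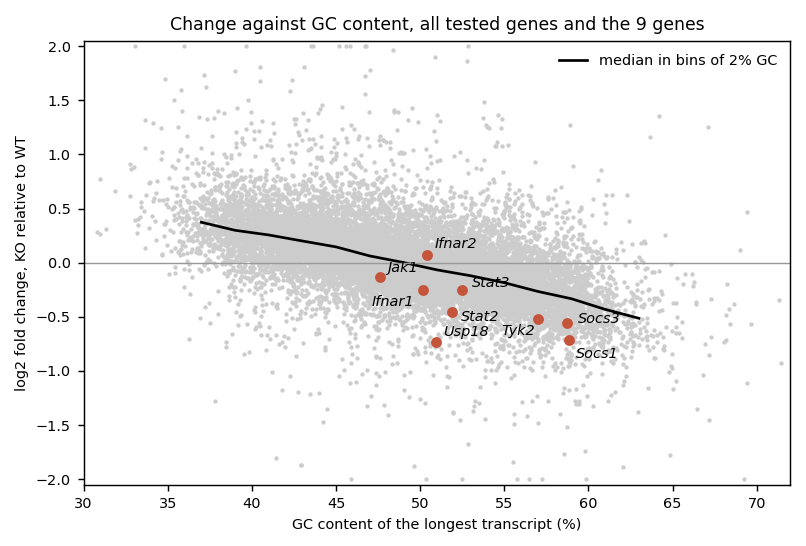
Log2 fold change of KO relative to WT (vertical axis, values beyond 2 drawn at 2) against GC content of the longest transcript (horizontal axis, percent) for the tested genes (grey), with the median in bins of GC content (line) and the 9 genes (red). *Usp18* and *Stat2* lie well below the line at their GC content, and *Ifnar2* lies above it.

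The ligands of the receptor were at or near 0. Of 18 type I interferon genes, 16 had 0 counts in all 6 libraries, *Ifnz* had 2 counts in WT replicate 3 and *Ifnk* had 1 count in KO replicate 2. None reached the 3 counts taken as measured, so that any level under 0.150 to 0.173 CPM was not detectable at this depth.

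Receptor chains of other cytokines that use JAK1, TYK2 or STAT3 were compared next. Of 16 tested, edgeR called 0, and DESeq2 called 0 of the 13 to which it gave an adjusted p. Of the 16, 11 had a lower and 5 a higher estimate. At an unadjusted edgeR p under 0.05, 5 were lower and 0 higher, where 13.2% of all tested genes were lower. The smallest p were those of *Il4ra* (83.8, 97.6 and 80.5 CPM in WT, 71.1, 66.5 and 54.1 CPM in KO, log2 fold change -0.45), *Il21r* (-0.49) and the IL-10 receptor chain *Il10ra* (-0.32), each with edgeR adjusted p = 0.147. After GC correction they were at -0.25, -0.32 and -0.20. The median was -0.19, and -0.082 after GC correction. Of 7 further genes, other JAKs and STATs and *Irf9*, 4 were lower at that limit and 0 higher, against the same 13.2%, and 0 were called by either tool. They were *Stat5a* (-0.51, edgeR adjusted p = 0.147), *Stat5b* (-0.42, 0.148), *Stat6* (-0.31, 0.149) and *Irf9*, the DNA-binding partner of STAT2, at 29.3, 34.5 and 30.9 CPM in WT and 24.2, 27.3 and 23.9 CPM in KO (-0.33, 0.151). After GC correction *Stat5a* was at -0.22, *Stat5b* at -0.31, *Stat6* at -0.17 and *Irf9* at -0.29, and the median of this list went from -0.33 to -0.18.

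Other inhibitors of the pathway did not share 1 direction. Of 16 tested, 6 were lower and 2 higher at an unadjusted edgeR p under 0.05, against 13.2% and 13% of all tested genes. edgeR called 0 of the 16 and DESeq2 0 of the 14 to which it gave an adjusted p, which *Socs2* was not among. Their estimates were lower for 10 and higher for 6, and after GC correction lower for 13 and higher for 3. The phosphatase gene *Ptpn1*, whose product acts on JAK2 and TYK2, had a log2 fold change of -0.42, and *Ptpn2*, whose product acts on JAK1, one of 0.48 (both edgeR adjusted p = 0.147). *Socs2*, a SOCS gene of the growth hormone and STAT5 pathway, was measured at 1.40, 1.92 and 2.26 CPM in WT and 2.76, 3.34 and 3.16 CPM in KO, with no overlap and a log2 fold change of 0.73 (edgeR adjusted p = 0.147). Its sign was thus opposite to that of *Socs1* and *Socs3*. After GC correction *Socs2* was at 0.61, *Ptpn1* at -0.23 and *Ptpn2* at 0.18.

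Genes of the interferon response followed. *Isg15*, which encodes the ubiquitin-like protein that USP18 removes, was measured at 3.96, 3.34 and 4.51 CPM in WT and 2.66, 2.82 and 1.58 CPM in KO. Its log2 fold change, -0.75 (edgeR adjusted p = 0.147), was close in size to that of *Usp18*, and was -0.65 after GC correction. Its activating enzyme *Uba7* had -0.34 (edgeR adjusted p = 0.171), and the other 2 of the 4 tested genes of this system, *Herc6* and *Ube2l6*, had 0.11 and 0.094. After GC correction *Uba7* was at -0.17, *Herc6* at -0.19, with its sign turned, and *Ube2l6* at 0.13. *Herc6* and *Ube2l6* were chosen after their values were seen. Among 32 tested interferon-stimulated genes, 10 were lower and 0 higher at an unadjusted edgeR p under 0.05, where 13.2% of all tested genes were lower, with a median of -0.22, and -0.30 after GC correction. edgeR called 0 of them and DESeq2 called 6 lower of the 27 to which it gave an adjusted p, against 0.695% of all genes with one. The smallest p were those of *Irf7*, the factor that amplifies interferon transcription, and of *Oasl2* and *Oas3*, of the oligoadenylate synthetase family, with log2 fold changes of -1.06, -1.01 and -0.86 (edgeR adjusted p = 0.0635, 0.0805 and 0.0815). After GC correction 5 of the 32 were lower at an edgeR adjusted p under 0.05, against 0.529% of all tested genes, which were these 3 (-0.87, -1.0 and -0.70) with *Oas1a* (-0.51) and *Oas2* (-0.64). *Usp18* had an estimate of similar size to these genes but rested on fewer counts.

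Genes known to respond to STAT3 or IL-10 in macrophages had 6 of 12 lower and 1 higher at an unadjusted edgeR p under 0.05, against 13.2% and 13% of all tested genes, with a median of -0.35 that went to -0.16 after GC correction. edgeR called 0 of them and DESeq2 called 1, *Il1rn*, against 0.521% of genes called higher. *Il1rn*, the interleukin-1 receptor antagonist, had 141, 136 and 141 CPM in WT and 178, 194 and 243 CPM in KO, a log2 fold change of 0.55 (edgeR adjusted p = 0.147, DESeq2 adjusted p = 0.00497). *Bcl2l1*, a survival gene, had -0.41, and *Il4ra*, which also stands among the receptors, -0.45 (each edgeR adjusted p = 0.147). After GC correction *Il1rn* was at 0.31, *Bcl2l1* at -0.20 and *Il4ra* at -0.25.

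**Figure D4:**
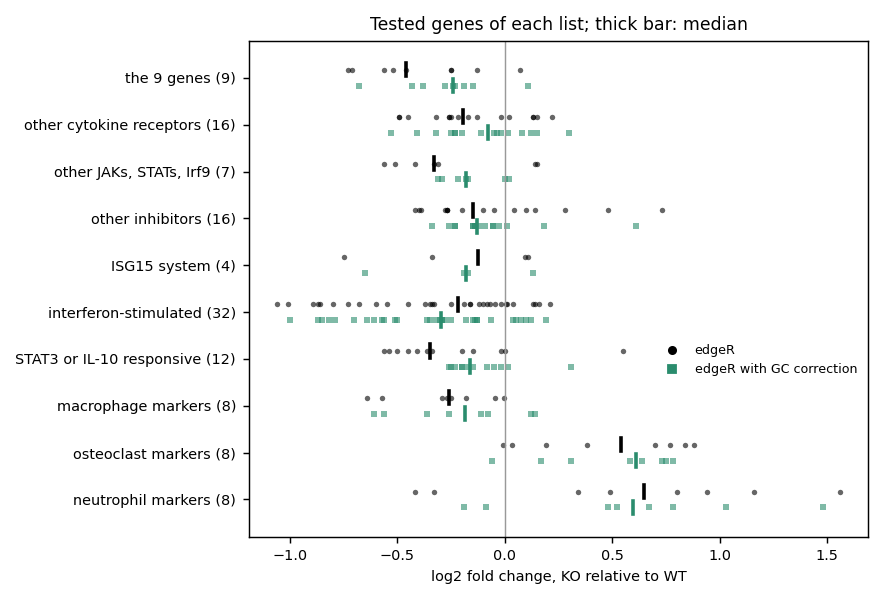
Log2 fold change of KO relative to WT (horizontal axis) of each tested gene in the lists (number of genes in brackets) by edgeR without (black) and with GC correction (green), with thick bars at the median. The medians of the pathway lists lie below 0, the lowest without correction being that of the 9 genes at -0.46, and those of osteoclast and neutrophil markers lie above 0.

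Some macrophage, osteoclast and neutrophil markers also differed in level between the genotypes by DESeq2 or after GC correction. The macrophage markers were detected in full, with a summed level of 16881 to 17977 CPM in WT and 15213 to 17903 CPM in KO, and 4 of 8 were lower at an unadjusted edgeR p under 0.05, against 13.2% of all tested genes. The osteoclast markers summed to 2734 to 2858 CPM in WT and 4008 to 4180 CPM in KO, with 5 of 8 higher at that limit, against 13%. Neutrophil markers summed to 1086 to 1259 CPM in WT and 1487 to 1847 CPM in KO with 5 of 8 tested higher and 1 lower, while the defining marker *Ly6g* had 0 to 5 counts per library. Dendritic cell markers had sums of 42.4 to 45.3 and 44.7 to 60.7 CPM, lymphoid markers of 5.14 to 6.32 and 6.35 to 8.05 CPM with *Cd3e* at 0 or 1 count, and stromal markers of 14.4 to 19.6 and 10.7 to 17.1 CPM, in WT and KO in that order. Erythroid markers did not pass the filter on low counts. *Lyz2* held most of the macrophage sum, with means of 13303 CPM in WT and 12882 CPM in KO. *Ctsk* (942 and 1606 CPM) and *Acp5* (1014 and 1320 CPM) together held most of the osteoclast sum. The osteoclast markers *Tnfrsf11a* (152 and 151 CPM) and *Nfatc1* (287 and 293 CPM) hardly differed. By the limits for a call, edgeR called 0 of the macrophage, osteoclast and neutrophil markers. DESeq2 called 2 macrophage markers lower, against 0.695% of genes, and 4 osteoclast and 4 neutrophil markers higher, against 0.521%. After GC correction 2 macrophage markers were lower at an edgeR adjusted p under 0.05, against 0.529% of all tested genes, and 5 osteoclast and 3 neutrophil markers higher, against 0.454%. The part of these shifts in the values of the 9 genes was not tested.

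The profile of *Usp18* over the 6 libraries (log2 CPM) was most like those of *Basp1*, *Gstm1* and *Glipr2*, with Pearson r of 0.985, 0.982 and 0.979, and 99 genes, 0.737% of those tested, had r above 0.9. For *Stat2* they were *Septin5*, *6330403L08Rik* and *Slc39a4* (r = 0.996, 0.995 and 0.995), and for *Socs3* they were *D2hgdh*, *Pcx* and *Gm45410* (0.998, 0.997 and 0.996). Far more genes had r above 0.9 with these than with *Usp18*, 1407 (10.5%) for *Stat2* and 1140 (8.49%) for *Socs3*. These correlations describe 6 libraries that also share genotype and GC trend.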

How the data were processed

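RNA-seq of 3 WT and 3 KO cultures was used, grouped by genotype from the labels. The values deposited by the authors are estimated counts without normalization, in part not whole. The submitters' processing notes name fastp, HISAT2, StringTie, RSEM and the build GRCm39, and their versions and roles are not given in the sources used here. The table's mean columns and pathway terms were not used.

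Counts were rounded to whole numbers. In R 4.3.3, edgeR 4.0.16 was run with filterByExpr, TMM, glmQLFit (legacy = FALSE) and glmQLFTest (common biological coefficient of variation 0.142), and DESeq2 1.42.0 and limma 3.58.1 (voom) as alternatives. A call needed an adjusted p under 0.01 and a fold change above 1.3, or 0.379 on the log2 scale. The GC correction enters a natural spline with 5 degrees of freedom of each library against transcript GC content as offsets. Gene positions, lengths and GC content are those of GENCODE M21 on GRCm38 and promoters those of RefSeq on GRCm38.p6, not of the build behind the counts, and no coordinates were converted.

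The members and lists were chosen with earlier results of these data known. All 9 members are named, with the 3 genes of smallest p in each list of pathway genes where this was under 0.05 and the 3 genes most like *Usp18*, *Stat2* and *Socs3*. Cell type markers were counted and summed. Other genes named as members of a counted group were chosen after their values were seen. No libraries were within sampling noise of each other (lowest chi-square per degree of freedom 3.77, WT replicates 1 and 3). Intervals and floors on counts cover counting error only, and the 95% intervals of fold changes are those of the fit.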

Additional observations from a re-analysis of the deposited data

How the results depend on the processing

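For each of the 9 genes, the direction was kept under 24 alternatives, and none was called under any of them at an adjusted p under 0.01 with a fold change above 1.3. The 24 were other normalizations, tests, filters, rounding, the GC correction, the replicate block and each library left out. Leaving out 1 library gave log2 fold changes of -0.83 to -0.64 for *Usp18*, -0.54 to -0.36 for *Stat2* and -0.62 to -0.37 for *Tyk2*. *Socs1* ranged from -0.94 to -0.35, the latter without KO replicate 3. Among 15 alternatives without GC correction, adjusted p was between 0.0333 and 0.442 for *Stat2*, 0.0449 and 0.442 for *Tyk2* and 0.0709 and 0.442 for *Usp18*, and DESeq2 gave no adjusted p for *Usp18* and *Socs1*, which fell under its own filter on mean counts. With the GC correction DESeq2 gave *Stat2* 0.0206 and *Tyk2* 0.0451.

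The count of all genes called, 1 in the report, was 126 by DESeq2 (54 higher, 72 lower), 3 with the GC correction, 340 with both (182 higher, 158 lower), and 0 to 2 with 1 library left out. Chosen after the data were seen were the GC correction with an adjusted p under 0.05 and no fold limit, which gave 132 genes, and the GC correction with each library left out, which gave 1 to 89. Without KO replicate 1 it gave 89, and edgeR adjusted p was then 0.0236 for *Stat2*, 0.0345 for *Ifnar1*, 0.045 for *Tyk2*, 0.0468 for *Jak1* and 0.056 for *Usp18*; without KO replicate 3 it gave 4. The cause of these differences was not tested. In these fits *Socs3* ranged from -0.32 to -0.13, the latter without KO replicate 2, and *Socs1* from -0.58 to -0.18, the latter without KO replicate 3.

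The replicate block left 1 gene and 0 members called, with *Usp18* at -0.72 (edgeR adjusted p = 0.0893) and *Tyk2* at -0.53 (edgeR adjusted p = 0.081). Deviations of same-numbered WT and KO libraries correlated at -0.215, 0.0766 and 0.166 for replicates 1, 2 and 3, so the numbers were not taken to pair the cultures. Depth limits *Socs1* and *Usp18* most, with 24 to 101 counts per library.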
